A study of Homo sapiens with 4 samples.

Results

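The 40 genes described here handle amino acid shortage, serine synthesis and amino acid transport. They were chosen by symbol, with earlier results of these data known. Each was matched through its Entrez gene ID, which found 40 of 40 among the 19390 gene IDs listed in any library. RNA had been sequenced from the widely used human embryonic stem cell line H1, labelled wild type, during stepwise differentiation toward blood. The series holds undifferentiated cells (day 0) and cells collected on days 2, 3 and 4, with 1 library for each day. Until day 2 the medium held 40 ng/ml of activin A and 50 ng/ml of BMP4, and from day 2 to day 4 it held 40 ng/ml of VEGF and 50 ng/ml of bFGF, each time in a custom form of mTeSR1. All cells come from this 1 line. Without replicates no difference between days has a test, and every 95% interval below covers counting error only.

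When amino acids run short or the endoplasmic reticulum is under stress, kinases phosphorylate the translation factor eIF2alpha. Most protein synthesis then slows, while the mRNA of the transcription factor ATF4 is translated more. ATF4 pairs with C/EBP proteins at composite sites in its target genes, which include asparagine synthetase, enzymes that make serine and feed the mitochondrial folate cycle, amino acid transporters and aminoacyl-tRNA synthetases. ATF4 is controlled largely at translation, so its mRNA level is not a measure of its activity. Human pluripotent stem cells are known to draw heavily on amino acids such as methionine and glutamine.

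The day labels were checked against markers, given as CPM, counts scaled to a common library size. The 5 pluripotency genes summed to 4437 CPM at day 0, 892 at day 2, 579 at day 3 and 357 at day 4, and the 5 primitive streak genes to 1.55, 648, 355 and 77.1 CPM on those days. Of the pluripotency sum at day 0, DNMT3B alone made 2930 CPM. The 8 genes of early blood and endothelium summed to 219, 412, 1059 and 1480 CPM, with TAL1 at 0 counts on day 2. KDR alone, already present in undifferentiated cells, made 209, 354, 868 and 942 CPM of these sums. Markers of other cell types were present as well. The 5 endoderm genes summed to 9.50, 102, 134 and 212 CPM, with SOX17 alone at 90.4 CPM at day 2. Of these 5, 3 were higher at day 2 than at day 0 and 2 were lower, APOB (4.85 to 1.18 CPM) and AFP (4.27 to 1.37 CPM). The 5 amnion and trophoblast genes summed to 7.95, 459, 618 and 717 CPM, of which HAND1, also a mesoderm gene, made 594 at day 4. GATA3 and TFAP2A made 85.4 and 35.3 CPM of that day's sum. KRT7 was lower on each later day, at 4.85, 2.94, 2.51 and 2.00 CPM, and CGA stayed at 0 to 0.589 CPM. In these bulk samples, fewer cells of a type and less RNA per cell cannot be told apart, and the part of a changing cell mix in the results below was not tested. Totals were 5.04, 5.20, 5.20 and 5.49 M expected counts on days 0, 2, 3 and 4.

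The members as a group stood highest in the day 2 library. Of the 40 members, 25 (62.5%) had their highest CPM at day 2 and 0 had their lowest there, whereas 19.8% of the 16085 genes with at least 1 CPM were highest at day 2 and 18.8% lowest. Another 9 members were highest at day 0, 1 at day 3 and 5 at day 4, beside 34.0, 19.1 and 27.1% of all genes. Their lowest CPM fell at day 0 for 10, at day 3 for 15 and at day 4 for 15, beside 36.5, 18.9 and 25.8% of all genes. Because the members were chosen with earlier results of these data known, these shares only describe the chosen genes. For some of the 25 highest at day 2, that day was within counting error of another. Examples are the ratios of day 2 to day 0 of ATF5 (1.02, 0.770 to 1.35) and SLC7A1 (1.03, 0.947 to 1.11). The rule of size called a gene on a difference of 1 or more in log2(CPM + 1), that is 2-fold after adding 1 CPM, provided either library had at least 1 CPM. At day 2 against day 0, 7 members (17.5%) were at least 2-fold higher, near the 12.9% of all genes, and 0 were at least 2-fold lower, against 8.81% of all genes. The median log2 difference of the members was 0.32, against -0.0009 for all genes, and 31 of 40 lay above 0. At day 3 against day 2, 37 of 40 members lay below 0 with a median of -0.55, against 0.0031 for all genes. In that step 5 members (12.5%) were at least 2-fold lower, beside 3.51% of all genes, and 0 were at least 2-fold higher, beside 5.82%.

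From day 3 to day 4 the members divided evenly: 21 lay above 0 and 19 below, with a median of 0.03, and the 1 member at least 2-fold lower compares with 4.25% of all genes (2.96% were higher). At day 4 against day 2, 8 members (20.0%) were at least 2-fold lower, beside 7.60% of all genes, and 0 were at least 2-fold higher, beside 8.18%. At day 4 against day 0, 4 members were lower and 2 higher, beside 11.9% and 16.1% of all genes, with a median of -0.20. The comparisons of day 2 with day 0, of day 3 with day 2 and of day 4 with day 2 share the day 2 library, so a value that is high in that library by chance moves all of them. The comparison of day 3 with day 0, added after the data were seen, does not use it: 2 members were at least 2-fold higher and 3 lower, beside 15.6% and 10.4% of all genes, with a median of -0.21. In all, 15 members passed the 2-fold rule in at least 1 of the 5 planned comparisons and 25 in none. The share of all genes passing in any of the 5 was not computed, so this count only describes the members.

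**Figure D1:**
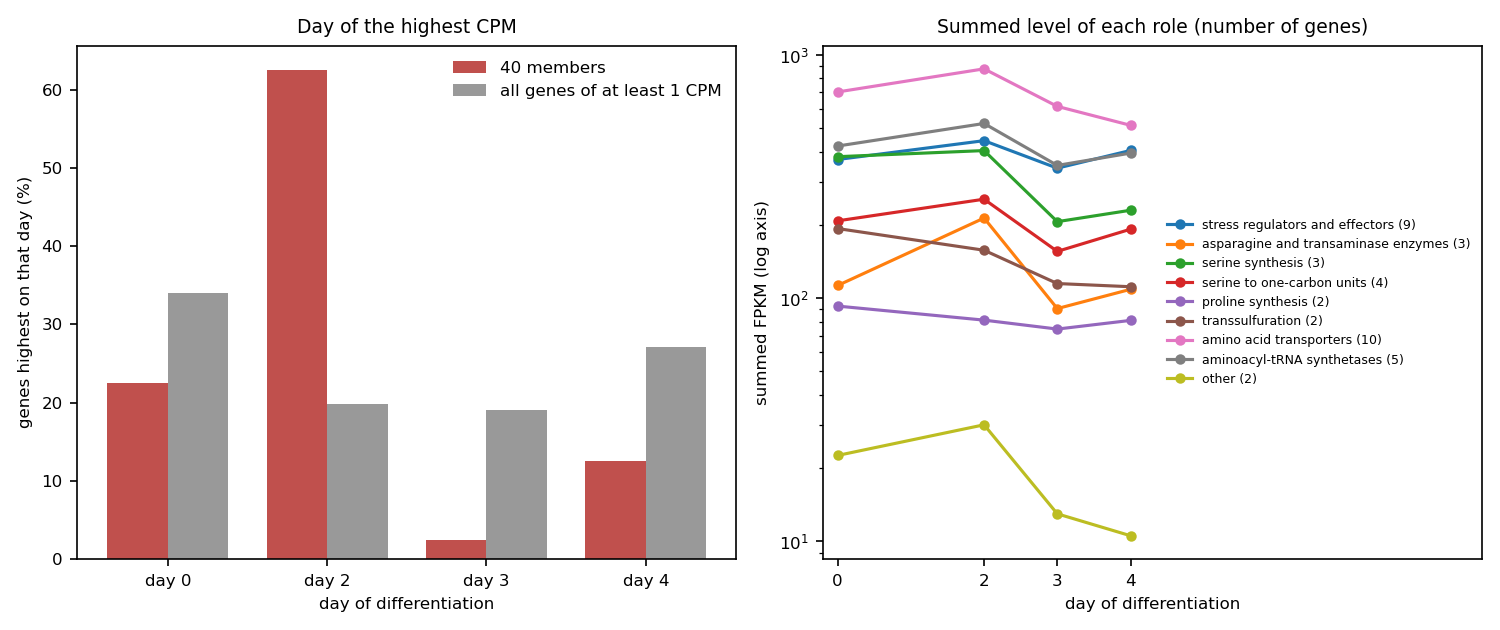
Left, the share of genes (%) whose CPM was highest on each day, for the 40 members and for all 16085 genes with at least 1 CPM; right, the summed FPKM (log axis) of the members of each role by day. The members' share at day 2 is 62.5%, against 19.8% of all genes, and the summed level is highest at day 2 for every role except proline synthesis and transsulfuration, which are highest at day 0.

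Among the regulators, ATF4 itself was the most abundant and moved little. It measured 421, 493, 382.5 and 462 CPM on days 0, 2, 3 and 4, 1.17-fold higher at day 2 than at day 0 (1.104 to 1.24). On FPKM, which divides by transcript length and lets genes be compared, it held 82.5, 77.4, 78.3 and 80.3% of the summed level of the 9 regulators and effectors, and ranked between 135 and 172 among all listed genes. All 9 lay above 0 at day 2 against day 0, beside 49.9% of all genes, and 3 of them (33.3%) were at least 2-fold higher, beside 12.9%. For ATF5 (1.02-fold, 0.770 to 1.35) and DDIT3 the interval of that ratio includes 1. ATF3, a stress-induced repressor of the same bZIP family, measured 12.6, 37.5, 38.3 and 42.5 CPM. It was lowest in undifferentiated cells: 2.97-fold higher at day 2 (2.23 to 4.00) and 3.37-fold higher at day 4 (2.55 to 4.51) than at day 0. ATF5, an ATF4 target and relative, stayed between 13.6 and 20.4 CPM.

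The C/EBP partners were highest at day 2. CEBPG, which forms heterodimers with ATF4, measured 58.6, 81.2, 53.3 and 55.2 CPM, 1.39-fold higher at day 2 than at day 0 (1.19 to 1.61). CEBPB measured 6.01, 13.1, 6.57 and 9.27 CPM, 2.19-fold higher at day 2 (1.41 to 3.46) with intervals that are wide because it had few reads. TRIB3, a pseudokinase that restrains ATF4, measured 11.4, 24.1, 21.5 and 23.5 CPM, and was 2.11-fold higher at day 2 than at day 0 (1.53 to 2.93), staying at that level. Both genes were just inside the 2-fold rule, each at 1.01 on the log2(CPM + 1) scale, and both fell short of it with a pseudocount of 5 CPM, at 0.72 for CEBPB and 0.83 for TRIB3, and on unscaled totals and FPKM.

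CHAC1, an enzyme that degrades glutathione and a sensitive ATF4 target, measured 17.1, 24.1, 9.28 and 12.5 CPM. It was 2.60-fold lower at day 3 than at day 2 (1.85 to 3.71). SESN2, which senses leucine and restrains mTORC1, measured 33.2, 48.3, 35.2 and 34.4 CPM, 1.46-fold higher at day 2 than at day 0 (1.19 to 1.78). DDIT3, the pro-death factor CHOP, was scarce throughout, at 4.07 to 7.15 CPM, and its ratio of day 2 to day 0 of 1.64 had an interval that includes 1 (0.923 to 2.97).

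**Figure D2:**
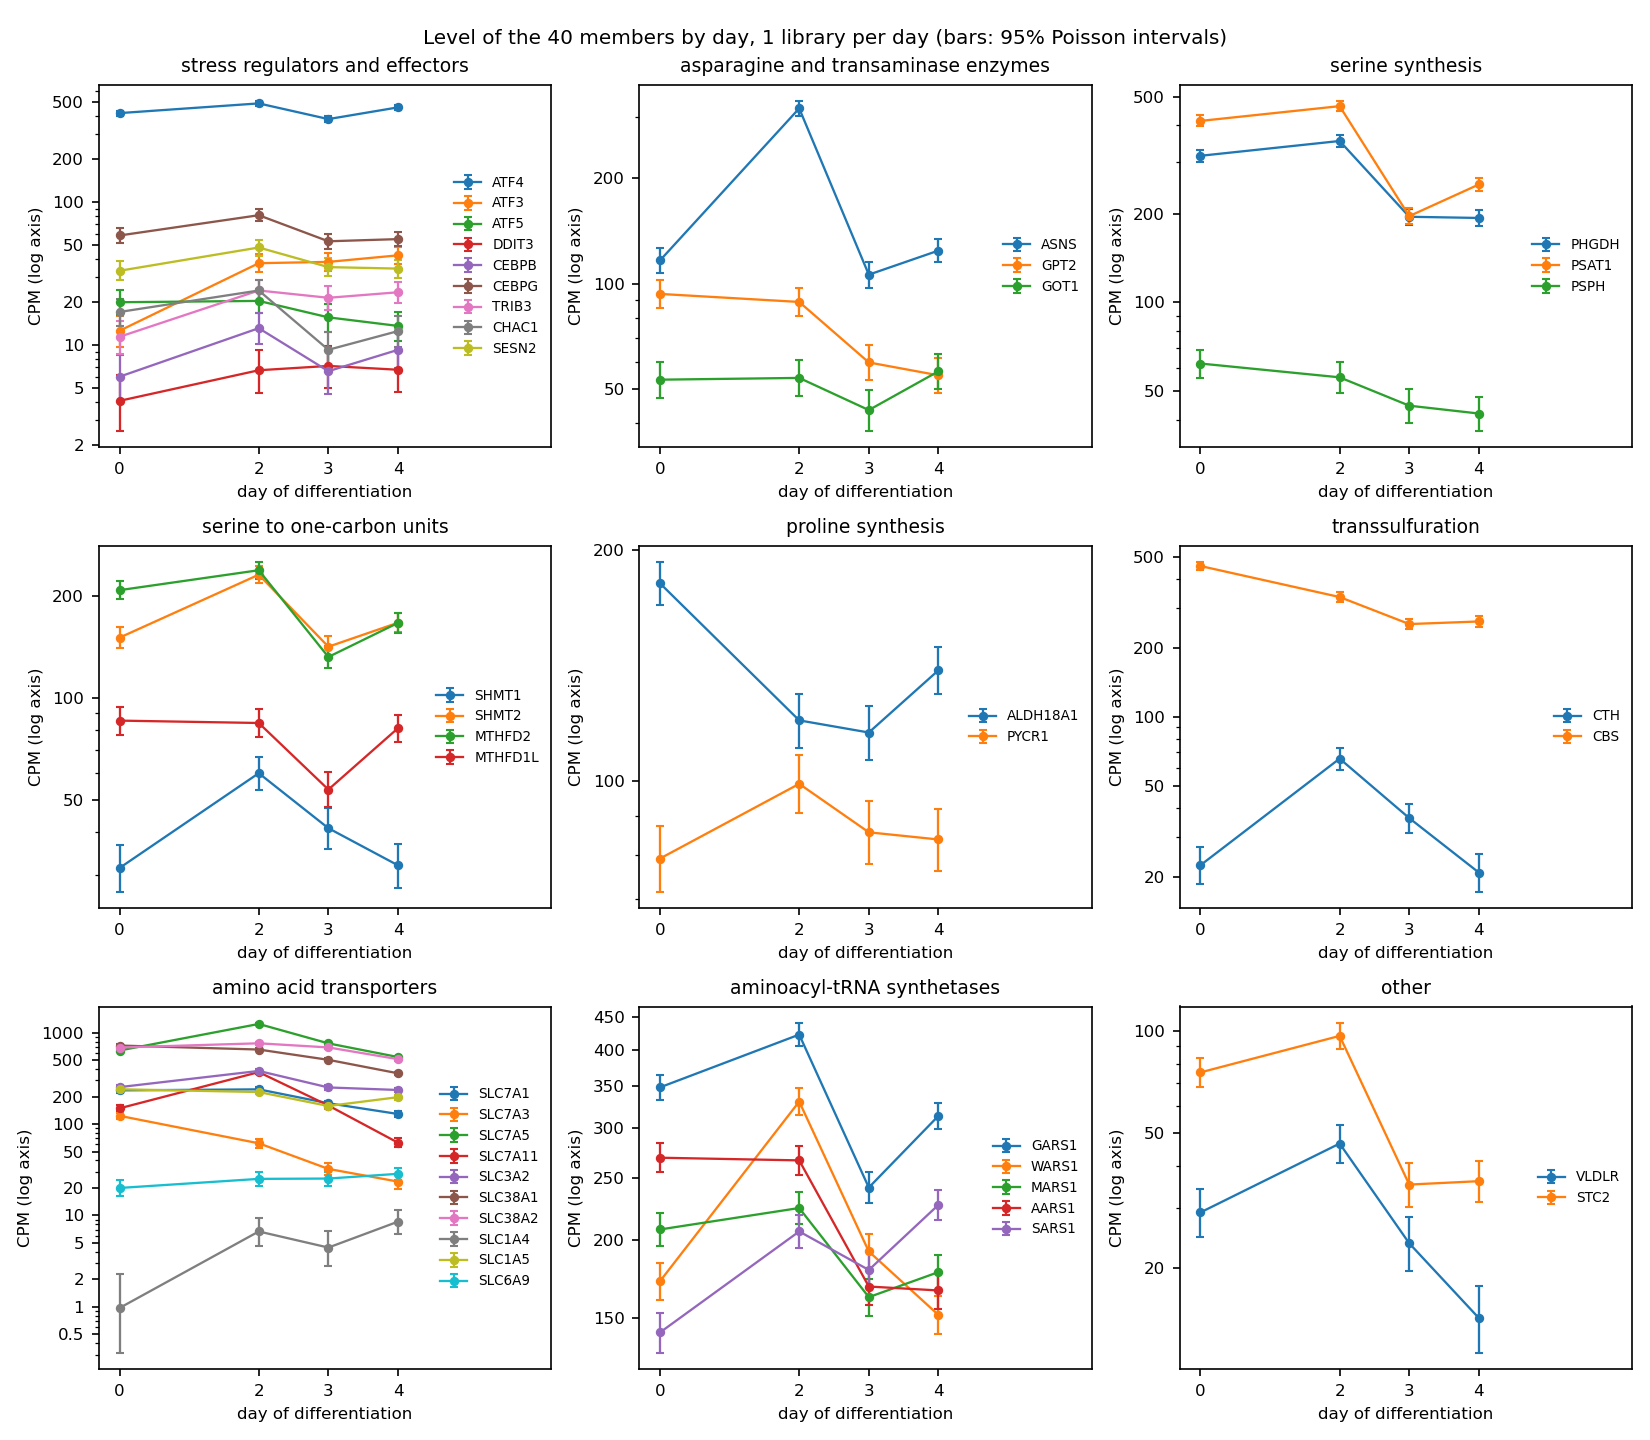
CPM (log axis, a separate scale in each panel) of each member on days 0, 2, 3 and 4, grouped by role; points are single libraries and bars are 95% Poisson intervals. Levels in CPM are not corrected for length, so lines are to be compared across days and not between genes; ASNS, CTH and SLC7A11 show the sharpest peaks at day 2, while SLC7A3 is at 23.5 CPM at day 4, against 123 CPM at day 0.

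ASNS, which makes asparagine from aspartate and glutamine and is the textbook target of the amino acid response, showed the sharpest rise and decline of the abundant members. It measured 117 CPM at day 0, 317 at day 2, 106 at day 3 and 124 at day 4 (124.5 before rounding). That is 2.71-fold higher at day 2 than at day 0 (2.47 to 2.98), and 2.98-fold lower at day 3 than at day 2 (2.70 to 3.29). Day 4 differed from day 0 by 1.07-fold, within counting error (0.954 to 1.19). ASNS and SLC7A11 were the 2 members at least 2-fold above both day 0 and day 3 at day 2, a pattern found in 1.45% of all genes. The transaminases did not share it: GPT2, the mitochondrial alanine aminotransferase, measured 93.7, 88.9, 59.7 and 54.9 CPM, and GOT1, the cytosolic aspartate aminotransferase, stayed between 43.7 and 56.3 CPM.

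Promoters of the members were read for the composite site of ATF4 and C/EBP, since many members peaked together. RefSeq windows on GRCh38.p14, from 250 bases before to 50 bases after each start, were found for 34 of the 40 members; GPT2, PSPH, PYCR1, SHMT2, SLC7A11 and SLC7A3 were not matched. The motif TGATGNAA was searched on both strands, and no other motif was searched. It was present in at least 1 window of 14 of 34 members (41.2%), against 465 of 14512 genes listed in any library (3.20%), with 1.71 windows per member and 1.43 per listed gene. The members include genes picked for being known ATF4 targets, so this share is only a description of chosen genes. A match is not evidence of binding. The 13 matched sites with their full flanks are shown so that the shared core can be compared, each written 5′ to 3′ on the strand that reads as the motif, with the 8 motif bases in capitals and their coordinates before the sequence.
AARS1, chr16:70289686-70289693: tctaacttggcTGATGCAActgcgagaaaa
ASNS, chr7:97872469-97872476: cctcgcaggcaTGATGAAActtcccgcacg
ATF3, chr1:212565216-212565223: aaaggtcaggaTGATGGAAggctgtcatat
CEBPG, chr19:33374071-33374078: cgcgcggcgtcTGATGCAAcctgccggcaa
CHAC1, chr15:40953262-40953269: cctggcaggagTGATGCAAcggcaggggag
GARS1, chr7:30594845-30594852: ggctcggagcaTGATGAAAtcgccgcgtaa
GOT1, chr10:99430815-99430822: gctgccgagaaTGATGCAAccaatgcaatt
MARS1, chr12:57488064-57488071: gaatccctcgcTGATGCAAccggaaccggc
MTHFD1L, chr6:150866357-150866364: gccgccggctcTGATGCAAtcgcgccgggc
SLC1A4, chr2:64989392-64989399: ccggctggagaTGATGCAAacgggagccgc
SLC1A5, chr19:46784904-46784911: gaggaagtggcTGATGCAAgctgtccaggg
SLC38A1, chr12:46266513-46266520: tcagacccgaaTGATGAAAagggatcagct
SLC7A1, chr13:29595674-29595681: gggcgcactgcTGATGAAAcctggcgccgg

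Of these sites 8 read TGATGCAA, 4 read TGATGAAA, as in ASNS, and ATF3 reads TGATGGAA. The match of SLC3A2 lay 38 bases into the transcript, near the end of its window. Distances from the start of transcription varied: 68 bases before it for ASNS, 42 for CEBPG, 209 for CHAC1, 191 for ATF3, 187 for AARS1 and 198 for GOT1, and 8 bases after it for SLC7A1. The bases upstream of the start are shown whole for ASNS, ATF3 and CHAC1, the matched members that passed 2-fold at day 2 or day 3 and had more than a few reads, each on its gene's strand with the match in capitals. In CHAC1 the motif lies on the opposite strand and so appears as its reverse complement.
ASNS, chr7:97872409-97872658 (minus strand): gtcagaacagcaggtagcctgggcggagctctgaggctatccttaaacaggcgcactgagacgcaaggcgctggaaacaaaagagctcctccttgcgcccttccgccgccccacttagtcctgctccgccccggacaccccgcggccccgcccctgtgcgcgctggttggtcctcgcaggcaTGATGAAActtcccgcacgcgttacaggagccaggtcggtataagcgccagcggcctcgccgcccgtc
ATF3, chr1:212565157-212565406 (plus strand): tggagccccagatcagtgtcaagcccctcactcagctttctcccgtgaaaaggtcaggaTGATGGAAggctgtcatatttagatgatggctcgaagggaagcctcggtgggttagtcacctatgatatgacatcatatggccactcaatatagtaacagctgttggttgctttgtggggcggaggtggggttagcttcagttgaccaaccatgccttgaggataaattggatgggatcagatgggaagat
CHAC1, chr15:40953221-40953470 (plus strand): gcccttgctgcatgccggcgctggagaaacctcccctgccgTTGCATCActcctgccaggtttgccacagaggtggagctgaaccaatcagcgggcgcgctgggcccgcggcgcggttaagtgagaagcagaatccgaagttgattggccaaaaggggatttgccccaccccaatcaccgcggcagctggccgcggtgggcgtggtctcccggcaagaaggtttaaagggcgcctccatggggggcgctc

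Members with and without the motif both had medians above 0 at day 2 and below 0 at day 3. At day 2 against day 0 the 14 members with a match had a median log2 difference of 0.19, with 3 at least 2-fold higher. The 20 members with a window and no match had 0.44, with 3 at least 2-fold higher. Of all genes, 12.9% were at least 2-fold higher in that step, and the sets are too small for these counts to be set apart from that share. At day 3 against day 2 the medians were -0.55 and -0.49. CTH, TRIB3, PSAT1 and SLC7A5 had no match in these windows, which says only that these letters are not there. No test was made of these differences.

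The 3 enzymes of serine synthesis were high in stem cells, changed little up to day 2 and had lower levels from day 3, with PSAT1 past 2-fold. PHGDH, the first enzyme of the pathway, measured 315, 353, 195 and 194 CPM, 1.81-fold lower at day 3 than at day 2 (1.67 to 1.96). PSAT1, the second, measured 413, 464, 196 and 252 CPM (251.5 at day 4), 2.36-fold lower at day 3 than at day 2 (2.19 to 2.55). PSPH, which removes the phosphate in the last step, measured 62.1, 55.7, 44.6 and 42.0 CPM and never passed 2-fold. Per length PSPH was the lowest of the 3 on every day, with PHGDH at 4.64 to 6.72 times its FPKM. PSAT1 stood above PHGDH on days 0, 2 and 4, and below it at day 3, with 88.6 FPKM for PSAT1 and 96.6 FPKM for PHGDH. At day 4 the 3 enzymes were 1.48 to 1.64 times lower than at day 0.

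The enzymes that pass serine carbon to folate were also highest at day 2, with the exception of MTHFD1L. SHMT2, the mitochondrial serine hydroxymethyltransferase, measured 150.3, 230.5, 141 and 166 CPM, 1.53-fold higher at day 2 than at day 0 (1.40 to 1.68). SHMT1, its cytosolic counterpart, measured 31.4, 59.8, 41.2 and 31.99 CPM, 1.90-fold higher (1.57 to 2.32) and just outside the 2-fold rule at 0.91. Per length the mitochondrial form led on every day, with SHMT2 at 3.72 to 5.67 times the FPKM of SHMT1. MTHFD2, the mitochondrial methylene tetrahydrofolate dehydrogenase, measured 207.5, 238, 132 and 166 CPM, 1.80-fold lower at day 3 than at day 2 (1.64 to 1.98). MTHFD1L, the mitochondrial formate-releasing enzyme, measured 85.5, 84.2, 53.5 and 81.2 CPM, so that day 3 alone was low.

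Most other folate and glycine cleavage enzymes were not higher at day 2. Of 19, 0 passed the 2-fold rule upward at day 2 against day 0, beside 12.9% of all genes, and 5 (26.3%) passed it downward, beside 8.81%, with a median of -0.33. Cytosolic MTHFD1 measured 349.8, 148.5, 117 and 158.5 CPM, 2.36-fold lower at day 2 than at day 0 (2.16 to 2.57), where mitochondrial MTHFD2 was 1.15-fold higher (1.05 to 1.24). The glycine decarboxylase GLDC measured 129, 45.1, 59.1 and 51.4 CPM, 2.86-fold lower at day 2 (2.46 to 3.34), and its partner AMT measured 25.2, 10.99, 8.70 and 14.0 CPM. SFXN3, a mitochondrial serine carrier, was at 3.30, 4.51, 8.70 and 14.0 CPM.

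Proline and cysteine synthesis each held 1 gene that was lower from day 2 on and 1 that was higher at day 2. ALDH18A1, which makes the precursor of proline, measured 181, 120 (119.9), 116 and 139 CPM, 1.51-fold lower at day 2 than at day 0 (1.36 to 1.67). PYCR1, which completes proline, was steady at 79.1 to 99.1 CPM. PRODH, which breaks proline down and is no member, measured 7.95, 79.6, 87.5 and 55.6 CPM, 10.02-fold higher at day 2 than at day 0 (7.25 to 14.2). CTH, which releases cysteine from cystathionine, measured 22.5, 65.7, 36.1 and 20.9 CPM, 2.92-fold higher at day 2 than at day 0 (2.36 to 3.64) and 3.14-fold lower at day 4 than at day 2 (2.54 to 3.92). CBS, the enzyme before it, measured 456, 334, 254 and 261 CPM, 1.37-fold lower at day 2 than at day 0 (1.28 to 1.46). The FPKM of CBS was thus 16.9 times that of CTH at day 0, 4.21 times at day 2, 5.80 at day 3 and 10.2 at day 4.

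The 10 transporters, the role with the most genes, made up the largest summed level of any role, with 703, 875, 613 and 513 FPKM on days 0, 2, 3 and 4. Such a sum depends on the number of genes in it, so it does not rank the roles per gene. SLC7A11, the cystine and glutamate exchanger, changed most among those with many reads. It measured 149, 370, 160 (159.6) and 62.5 CPM, 2.49-fold higher at day 2 than at day 0 (2.29 to 2.71), 2.32-fold lower at day 3 than at day 2 (2.14 to 2.52) and 2.55-fold lower again at day 4 than at day 3 (2.25 to 2.90). It was the 1 member at least 2-fold lower in the last step, and the 1 member at least 4-fold lower at day 4 against day 2, at 5.92-fold (5.28 to 6.66), beside 1.40% of all genes.

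SLC7A5, the light chain of the large neutral amino acid transporter LAT1, was the most abundant transporter per length on every day, at 143, 268, 166 and 119 FPKM. In CPM it measured 638, 1247, 764 and 542, 1.95-fold higher at day 2 than at day 0 (1.87 to 2.04) and 2.30-fold lower at day 4 than at day 2 (2.20 to 2.41). SLC3A2, the heavy chain that LAT1 and the SLC7A11 exchanger share, measured 254, 381.5, 252 and 236 CPM, 1.504-fold higher at day 2 than at day 0 (1.40 to 1.615). The FPKM of SLC7A5 was 1.18, 1.45, 1.32 and 1.01 times that of SLC3A2 on the 4 days.

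The cationic amino acid transporters changed rank. SLC7A3, which carries arginine and lysine, measured 123, 61.6, 32.3 and 23.5 CPM. It was 5.25-fold lower at day 4 than at day 0 (4.34 to 6.40), past 4-fold, as were 3.44% of all genes, and its difference at day 2, -0.99, was just outside the rule (-1.05 on unscaled totals). SLC7A1, with similar substrates, measured 234, 240 (239.9), 169 and 129 CPM. The FPKM of SLC7A1 was 0.579 times that of SLC7A3 at day 0, and 1.195, 1.60 and 1.69 times at days 2, 3 and 4.

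Among the 3 abundant glutamine and neutral amino acid carriers, SLC38A1 passed the rule and SLC38A2 and SLC1A5 did not. SLC38A1 measured 724, 654, 505 and 359.5 CPM, 2.01-fold lower at day 4 than at day 0 (1.91 to 2.13), a call at -1.01 that fell just short of 1 in size with a pseudocount of 5 CPM. SLC38A2, whose mRNA responds to amino acid shortage, measured 689, 766, 690.0 and 513 CPM, and SLC1A5, the ASCT2 glutamine exchanger, 240.3, 224, 158 and 197 CPM. SLC1A4, which exchanges serine and alanine, was rare, at 0.970, 6.67, 4.45 and 8.54 CPM from 5 reads in the day 0 library. It was 8.81-fold higher at day 4 than at day 0 (3.52 to 28.4) beside 6.27% of all genes at least 4-fold higher. At day 2 it was 6.88-fold higher than at day 0 (2.68 to 22.5), a call that ended at 0.97 with a pseudocount of 5 CPM and also on FPKM. SLC6A9, a glycine transporter, stayed between 20.0 and 28.5 CPM.

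Of the 24 other amino acid transporters fixed beside these, 22 had at least 1 CPM at day 0 or day 2. Of these, 4 (18.2%) passed the 2-fold rule upward at day 2 against day 0 and 3 (13.6%) downward, near the 12.9% and 8.81% of all genes, with a median of -0.03. SLC7A7, which exports cationic amino acids, measured 4.65, 26.3, 24.7 and 47.1 CPM, 10.1-fold higher at day 4 than at day 0 (6.65 to 16.1). SLC38A4, a carrier of small neutral amino acids, measured 67.3, 11.8, 5.03 and 2.91 CPM, 23.1-fold lower at day 4 than at day 0 (14.1 to 40.9). SLC38A5, a glutamine carrier, measured 41.1, 14.1, 12.4 and 12.2 CPM, and SLC36A4, a proline and tryptophan carrier, 18.4, 42.2, 59.9 and 55.1 CPM.

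**Figure D3:**
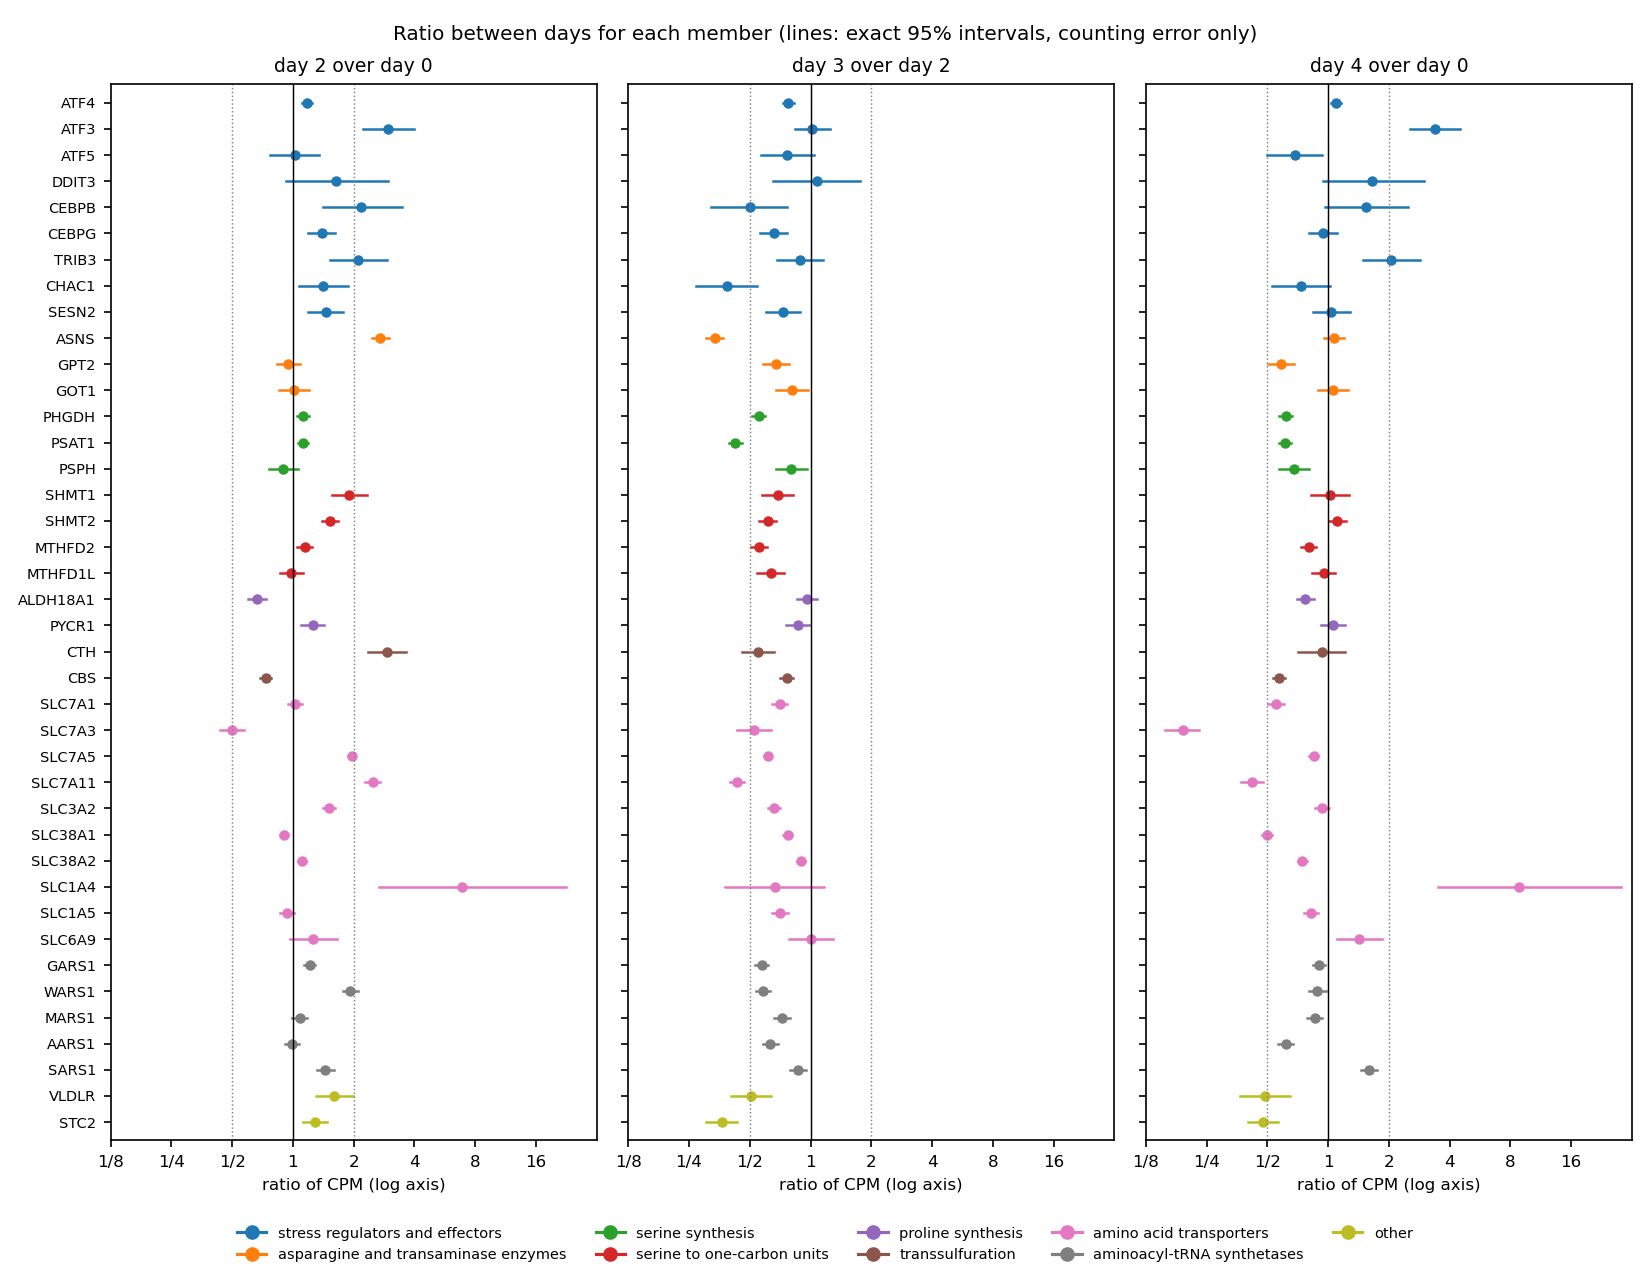
Ratio of CPM (log axis) between pairs of days for each of the 40 members, coloured by role; lines are exact 95% intervals that cover counting error only, the solid vertical line marks 1 and the dotted lines mark 2-fold. Most points lie right of 1 at day 2 over day 0 (31 of 40) and 37 of 40 lie left of 1 at day 3 over day 2; SLC1A4 has the widest interval.

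The 5 aminoacyl-tRNA synthetases, which charge tRNAs with their amino acids, lay below 0 together at day 3 against day 2, all 5 of them, with a median of -0.66. At day 2 against day 0, 4 of the 5 lay above 0, with a median of 0.28. In that step 0 of the 5 passed 2-fold, beside 12.9% of all genes higher and 8.81% lower. They differed in size and at day 4. WARS1, for tryptophan, which is also known to respond to interferon gamma, measured 172, 331, 191.5 and 152 CPM. It was 1.93-fold higher at day 2 than at day 0 (1.77 to 2.09) and 2.18-fold lower at day 4 than at day 2 (2.00 to 2.37). SARS1, for serine, measured 142.5, 206, 179 and 227 CPM, and was the 1 synthetase of the 5 that was highest at day 4, 1.59-fold above day 0 (1.45 to 1.75). GARS1, for glycine, measured 348.5, 422.5, 242 and 314 CPM. MARS1, for methionine, stayed between 162 and 224 CPM, and AARS1, for alanine, measured 269.6, 267, 168.5 and 166 CPM.

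Of 15 other cytosolic synthetases, 12 lay below 0 at day 2 against day 0, with a median of -0.18. In that step 0 passed 2-fold in either direction, beside 12.9% of all genes higher and 8.81% lower. At day 3 against day 2, where all 5 members lay below 0, 12 of these 15 did too, with a median of -0.19, beside 49.7% of all genes. Of the 15, 10 (66.7%) were highest at day 0, beside 34.0% of all genes. YARS1, for tyrosine, measured 228, 339, 165 and 204.5 CPM, 2.06-fold lower at day 3 than at day 2 (1.90 to 2.24). TARS1, for threonine, measured 528, 351, 254 and 306 CPM, and LARS1, for leucine, 450.1, 303, 226.5 and 274 CPM. All 15 lay above 0 at day 4 against day 3, with a median of 0.26. Of 17 mitochondrial synthetases, 14 lay below 0 at day 2 against day 0, with a median of -0.20.

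The remaining 2 members were lower late. STC2, a secreted glycoprotein gene induced by stress, measured 75.4, 96.7, 35.2 and 36.0 CPM. It was 2.75-fold lower at day 3 than at day 2 (2.32 to 3.28) and 2.10-fold lower at day 4 than at day 0 (1.76 to 2.50). The last call ended at -0.97 with a pseudocount of 5 CPM and at -0.995 on FPKM. VLDLR, a lipoprotein receptor gene that ATF4 can induce, measured 29.1, 46.5, 23.6 and 14.2 CPM. It was 3.28-fold lower at day 4 than at day 2 (2.53 to 4.29), and its difference of day 4 and day 0, -0.99, lay just outside the rule.

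Other genes of the integrated stress response were mixed at day 2. Of 14 with at least 1 CPM at day 0 or day 2, 4 (28.6%) passed the 2-fold rule upward at day 2 and 1 (7.14%) downward, beside 12.9% and 8.81% of all genes, with a median of 0.36. GDF15, a stress cytokine gene, measured 6.01, 49.2, 15.1 and 15.1 CPM, 8.19-fold higher at day 2 than at day 0 (5.63 to 12.3) and 3.27-fold lower at day 3 than at day 2 (2.52 to 4.27). JDP2, a bZIP repressor, measured 10.9, 58.6, 37.7 and 28.9 CPM, and DDIT4, which restrains mTORC1, 14.9, 45.3, 35.6 and 29.3 CPM. PPP1R15A, the phosphatase subunit GADD34 that reverses eIF2alpha phosphorylation, was higher on each later day, at 19.8, 49.6, 82.5 and 95.8 CPM, 4.84-fold higher at day 4 than at day 0 (3.91 to 6.05).

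The genes of endoplasmic reticulum stress had a different course from the members. Of 16, 14 were lowest at day 0 and 0 were highest there, beside 36.5 and 34.0% of all genes. The median log2 difference of the 16 was 0.54 at day 2 against day 0, 0.11 at day 3 against day 2 and 0.58 at day 4 against day 0. HSP90B1, a chaperone gene of the endoplasmic reticulum, measured 1164, 1653, 1978 and 2413 CPM, 2.07-fold higher at day 4 than at day 0 (2.01 to 2.14), and EDEM1, which helps discard misfolded proteins, 25.6, 60.6, 50.6 and 44.4 CPM. At day 3 against day 2, 5 of 16 lay below 0, whereas 37 of 40 members did.

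Of the NRF2 and glutathione genes, which like SLC7A11 serve the defence against oxidation, 7 of 12 (58.3%) were highest at day 2, beside 19.8% of all genes. The median of the 12 was 0.44 at day 2 against day 0 and -0.40 at day 3 against day 2. SRXN1, a peroxiredoxin repair gene, measured 29.7, 42.6, 18.9 and 15.6 CPM, 2.25-fold lower at day 3 than at day 2 (1.76 to 2.88). HMOX1, heme oxygenase, went the other way, with 65.2, 12.4, 15.7 and 16.7 CPM, and GCLC, for glutathione synthesis, measured 99.7, 66.7, 43.9 and 44.9 CPM. Among 15 genes that sense amino acids at the lysosome, 0 passed 2-fold at day 2 against day 0, beside 12.9% of all genes higher and 8.81% lower. SESN3, a relative of SESN2, measured 73.5, 71.4, 187 and 143 CPM, and RRAGD, a Rag GTPase, 17.6, 9.61, 3.48 and 3.45 CPM. Other amino acid enzymes had a median of -0.06 at day 2, with ASS1, which makes the precursor of arginine, at 48.5, 126, 78.1 and 34.7 CPM.

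**Figure D4:**
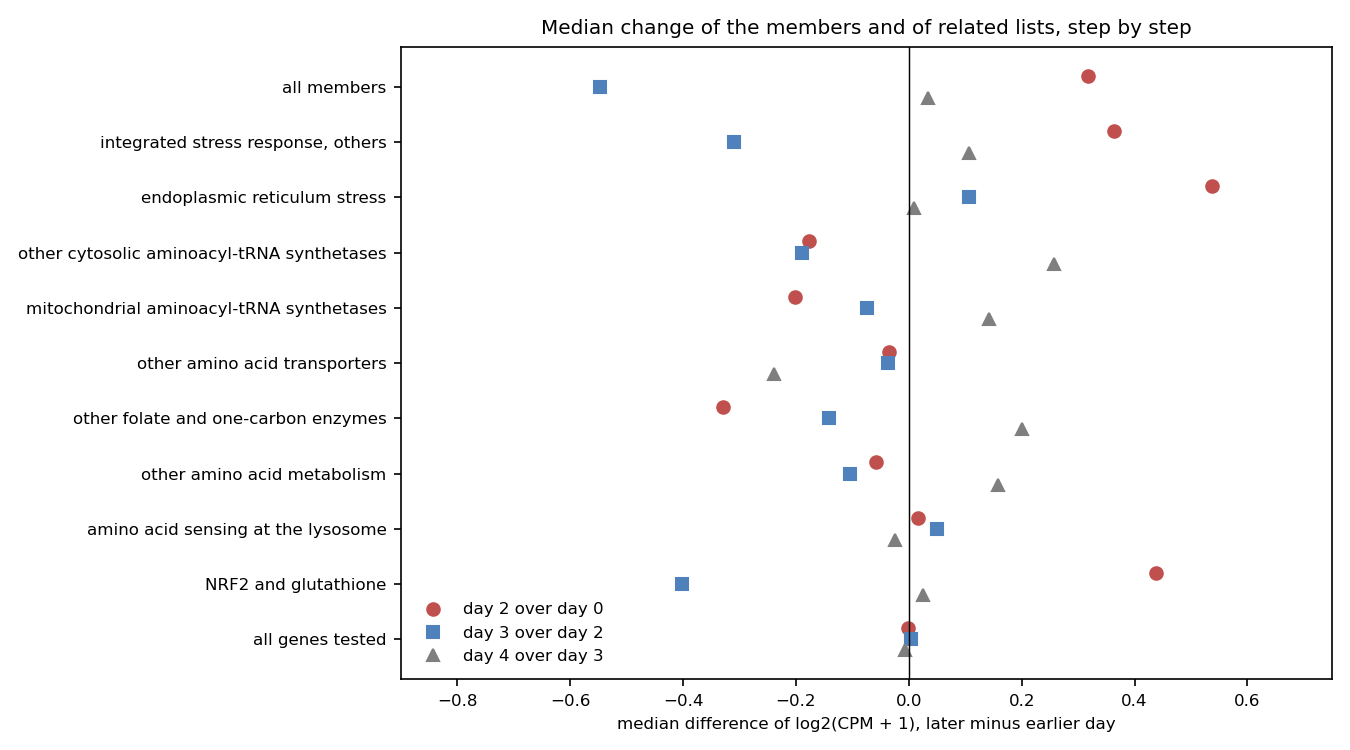
Median difference of log2(CPM + 1), later minus earlier day, for the 40 members, 9 related lists and all genes tested, in the 3 steps between neighbouring days. The members have a median of 0.32 at day 2 over day 0 and -0.55 at day 3 over day 2. The other integrated stress response genes and the NRF2 and glutathione genes also lie above 0 in the first step and below 0 in the second. The endoplasmic reticulum list lies above 0 in these steps and close to 0 at day 4 over day 3 (0.0098).

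The deposited transcript length was not the same on every day for some genes. Whether it is weighted by the abundance of a gene's transcripts is not stated, so its changes cannot be read as changes of isoform. It was constant for 16 members and varied for 24. DDIT3, with 6 listed transcripts, had 936, 971, 1032 and 1105 bases on days 0, 2, 3 and 4. MTHFD1L, with 4, had 2744, 2987, 2962 and 2554 bases, and its FPKM of 31.8 at day 0 and 31.8 at day 4 stood above the 27.6 at day 2, while its CPM differed by less. ASNS, with 6, stayed between 1835 and 1925 bases, and SLC3A2, with 5, between 1989 and 2141. These lengths have no error. Of the 40 members, 10 have at least 1 named pseudogene in RefSeq that can share reads, among them ATF4 with 4, ASNS with 5, PSAT1 with 4 and MTHFD2 with 7, so their levels are less certain than the intervals say. The 2 listed pseudogenes of SLC7A5 measured 1.82 to 6.96 CPM, against 542 to 1247 CPM for SLC7A5.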

How the data were processed

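RNA of H1 cells was sequenced at 4 time points, 1 library each. Per the labels' protocols, RNA was taken with Trizol and libraries made with an Illumina TruSeq kit. BWA, Bowtie, RSEM and the build hg19 appear in the submitters' processing notes, without versions or roles. The series' design text instead names BWA with ANOVA, and TopHat with Cufflinks. Which of these made the deposited columns is not stated. The authors deposited an expected count per gene, rounded here to whole numbers and used for every CPM and ratio. The deposited FPKM was used for levels between genes and for 1 alternative. The deposited length is, per the file headers, a length in bases. Genes missing from a library's file count as 0 there.

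Gene names came from RefSeq on GRCh38.p14, which matched 19273 of 19390 IDs. CPM were computed with TMM factors (1.02, 0.981, 0.995 and 1.00 on days 0, 2, 3 and 4) from edgeR 4.0.16 in R 4.3.3, so 1 read is 0.182 to 0.196 CPM. Python 3.11.15 with scipy 1.17.1 gave exact Poisson intervals and exact conditional binomial intervals of ratios, at 95%. No test was possible with 1 library per day. A gene was called at a difference of 1 in log2(CPM + 1) with at least 1 CPM in either library. Members and lists were chosen with earlier results of these data known. All 40 members are named, with up to 4 genes of each other list, those with the largest difference between any 2 days. The alternatives were pseudocounts of 0.1 and 5 CPM, median-of-ratios factors, unscaled totals, no filter, a minimum of 5 CPM, FPKM, protein-coding genes alone and a 4-fold threshold.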

Additional observations from a re-analysis of the deposited data

How the results depend on the processing

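All 80 alternative values of the medians of the members and of all genes lay within 0.1 of the values given. Of 1000 alternative values of single members, 983 kept their direction and their side of 2-fold, 11 no longer passed it, 6 newly passed it and 0 changed direction. The 6 were TRIB3 (1.03) and VLDLR (-1.03) at day 4 against day 0 with a pseudocount of 0.1 CPM, VLDLR with median-of-ratios factors (-1.01) and unscaled totals (-1.02), and SLC7A3 at day 2 against day 0 on unscaled totals (-1.05) and FPKM (-1.04). Counts of calls moved by over 1.5 times as follows. With a pseudocount of 5 CPM, 4 members were higher at day 2 against day 0 and 2 lower at day 4 against day 0. On FPKM 4 members were higher and 1 (SLC7A3) lower at day 2 against day 0, and on unscaled totals 1 was lower. At a 4-fold threshold 0 members were higher at day 2 against day 0, 0 lower at day 3 against day 2 and 0 at day 4 against day 3, 1 was lower at day 4 against day 2, and 1 was higher and 1 lower at day 4 against day 0. Among all genes, a pseudocount of 5 CPM gave 1231 higher and 633 lower at day 2 against day 0, 374 and 192 at day 3 against day 2, 127 and 206 at day 4 against day 3, 607 and 609 at day 4 against day 2, and 1560 and 1056 at day 4 against day 0. The 4-fold threshold gave 712 and 297, 202 and 62, 58 and 35, 357 and 215, and 981 and 538 in the same order. A pseudocount of 0.1 CPM gave 847 lower at day 3 against day 2, and 751 higher and 1062 lower at day 4 against day 3. A minimum of 5 CPM gave 352 lower at day 3 against day 2 and 261 higher at day 4 against day 3, and FPKM gave 412 lower at day 4 against day 3. The 4-fold counts are fewer by construction, and the cause of the other moves was not tested. No paired analysis was possible because the labels give 1 library per day and no replicate numbers. Depth limits SLC1A4, DDIT3, CEBPB and CHAC1, which had under 10 CPM in some library.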
